A study of Mus musculus with 6 samples.

Results

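The genes examined here build the extracellular matrix outside the fibrillar collagens, or cut and protect it: basement membrane components, other non-fibrillar collagens, fibronectin and the matricellular proteins, matrix proteoglycans, elastic fibre and crosslinking proteins, and the matrix metalloproteinases with their inhibitors. The set was defined by name as 47 genes, and every probe set that the annotation paired with exactly 1 of these symbols was taken. Of the 47 genes, 45 had such a probe set, out of 18193 genes measured in all, and together they had 100 of the 45037 probe sets that were not array controls. Spp1 and Fbn1 had none and were not analysed here. Of the 100 probe sets, 86, from 42 genes, had a mean log2 level above 3.62, the minimum for a test. Lama1, Lum and Postn had no probe set above it, and the other probe sets that were too dim to test belonged to genes that kept at least 1.

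The samples were cultures of GC1-Spg, a single established mouse cell line labelled as spermatogonial, that is, as derived from mitotic germ cells of the testis. The first group received 100 nM siRNA against mrhl, a nuclear noncoding RNA transcribed from within an intron of Phkb, and the second received 100 nM scrambled siRNA. Every culture was therefore transfected with siRNA, and untransfected cells are not analysed here. RNA was taken 44 h after transfection from 3 biological replicates per group, each on its own Affymetrix array, and the question is how the transcript levels of cells with silenced mrhl compare with those of control cells. Values below are on the log2 scale, in the order of replicate numbers 1, 2 and 3. A log2 fold change is the mrhl siRNA mean minus the scrambled siRNA mean.

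No probe set was paired with mrhl, so the silencing itself was not read. Of 14 germ cell markers, 12 had probe sets and 4, Uchl1, Id4, Gfra1 and Dnd1, lay above the median probe set level of 5.23. The germ cell markers Ddx4 and Dazl lay below 3.62. Over the 12, the mean level was 4.58 to 4.76 on the mrhl siRNA arrays and 4.45 to 4.91 on the scrambled siRNA arrays. Of 10 markers of peritubular myoid cells and fibroblasts, testis cell types that produce matrix, 5 lay above 5.23 (Vim, S100a4, Acta2, Pdgfra and Des). Tagln, Cnn1 and Myh11 lay between 3.62 and 5.23, and Pdgfrb and Thy1 lay below 3.62. The mean level of all 10 was 6.52 to 7.01 on the mrhl siRNA arrays and 6.58 to 7.10 on the scrambled siRNA arrays. Of 10 Sertoli cell markers, 6 lay above 5.23, with mean levels of 6.33 to 6.45 after mrhl siRNA and 6.38 to 6.52 after scrambled siRNA. None of the 6 endothelial markers lay above 5.23, and their mean level was 3.01 to 3.58 after mrhl siRNA and 3.68 to 3.86 after scrambled siRNA. Of the 6, 3 (Pecam1, Vwf and Tie1) lay below 3.62 and were not tested, so these means rest partly on dim signals. The part of these markers in the results was not tested. The 24 control rows for polyadenylated RNA spikes averaged 4.37, 7.46 and 8.10 on the mrhl siRNA arrays and 4.27, 8.45 and 7.84 on the scrambled siRNA arrays. Both arrays of replicate number 1 thus stood apart in the spikes. The 3 control rows for 18S averaged 3.42, 3.37 and 5.72 on the mrhl siRNA arrays and 3.76, 6.50 and 5.52 on the scrambled siRNA arrays. There the 2 arrays of number 2 differed from each other, and the part of this in the results was not tested. In bulk RNA, fewer cells of a type and less RNA per cell cannot be told apart.

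The basement membrane is a sheet in which networks of type IV collagen and laminin are joined by nidogens, and in the testis it surrounds the seminiferous tubule and borders the spermatogonia. Fibronectin and the matricellular proteins link cells to the interstitial matrix, proteoglycans bind water and growth factors, and the fibulins, elastin and lysyl oxidases form and crosslink elastic fibres. Matrix metalloproteinases cut these components, and the tissue inhibitors of metalloproteinases (TIMPs) bind the enzymes and block them.

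Matrix genes were well represented on these arrays, and no difference between mrhl siRNA and scrambled siRNA among them passed the adjustment for multiple tests. Of the 86 tested probe sets, 69 lay above the median level and 47 above the 75th percentile level of 7.53. At an adjusted p under 0.05, 0 of the 86 passed (limma), as did 0 of all 33778 probe sets tested, a background of 0.00%, and the smallest adjusted p of either was 0.965 (limma). At an unadjusted p under 0.05 stood 4 of the 86, against a background of 3.44% of all probe sets. Of these, 3 were higher after mrhl siRNA (Smoc2 and single probe sets of Col4a1 and Vcan), against 1.26% of all probe sets, and 1 was lower (Mgp), against 2.18%. Smoc2 reached the minimum level only through the mrhl siRNA group, where it was high, so its place in these counts was favoured by the filter. With the filter at the median level, which leaves Smoc2 out, 3 of 69 member probe sets stood there, against 3.46% of all. The 3 arrays of a group did not overlap those of the other for 5 probe sets, against a background of 8.40%. Single probe sets of Smoc2, Col4a1, Lama5 and Bgn were the 4 higher after mrhl siRNA (background 2.58%), Smoc2 with the same limit, and Mgp was the 1 lower (background 5.82%).

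The direction within the set was mixed, with more values above 0 than among all probe sets. A positive log2 fold change was found for 51 of the 86 probe sets, or 59.3%, against 43.8% of all probe sets. The 51 include Smoc2 and a Vcan probe set whose scrambled siRNA means lay under the minimum level, so the filter favoured their sign. The median was 0.07, against -0.03 over all probe sets. With the filter at the median level, which leaves both out, it was 0.08, against -0.04 over all. By pair of equal replicate number the median over the set was -0.02, 0.09 and 0.02 for numbers 1, 2 and 3, against -0.00, -0.09 and -0.02 over all probe sets. The single array that stood lowest most often was scrambled siRNA replicate 2, the lowest of the 6 arrays for 35 of the 86 probe sets, or 40.7%, against 18.03% of all probe sets. Without that array the median was 0.02, and without both arrays of number 2 it was 0.00. The medians over all probe sets in these settings are not given here, so the distance of the set from them is not shown.

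The replicate numbers were read as pairs, since arrays of equal number deviated together. With the number as a block, 15 of the 86 probe sets, from 14 genes, had an unadjusted p under 0.05, or 17.4%, against a background of 10.1%. Of the 15, 8, Smoc2 among them, were higher after mrhl siRNA (background 3.87%) and 7 lower (background 6.23%). None passed the adjustment with the block (limma, smallest adjusted p among the 86 = 0.487), nor with the block and a trended, robust variance model, where 0.00592% of all probe sets did. The same direction in 3 of 3 pairs was found for 36 probe sets, or 41.9%, against 37.5% of all probe sets, 20 of them higher after mrhl siRNA (14.1% of all) and 16 lower (23.4% of all). Smoc2, favoured by the filter, is among both the 8 and the 20. The 3 replicates of a group are described as independent experiments, and the p-values measure the spread between these samples of 1 cell line. Log2 fold changes given with arrays left out come from fits without the block. Where 1 array of a pair is left out, differences between replicate numbers therefore enter them.

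**Figure D1:**
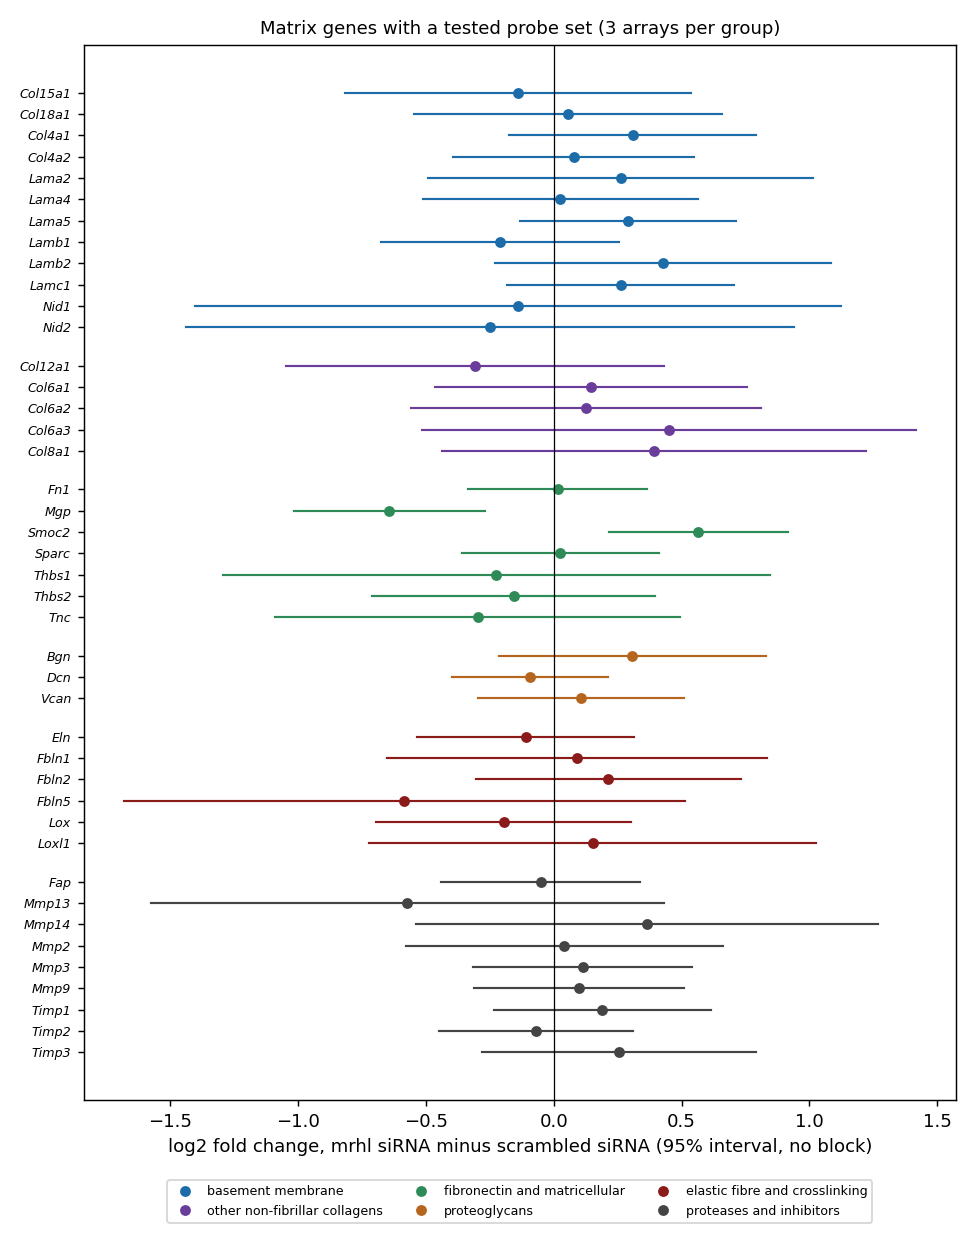
Log2 fold change (mrhl siRNA minus scrambled siRNA, x axis) with its 95% interval for each of the 42 genes with a tested probe set, read through the probe set with the highest mean level and coloured by role. Mgp lies lowest, at -0.64, with an interval clear of 0, and Smoc2, at 0.57, was tested only because of its mrhl siRNA values, its scrambled siRNA values all being under 3.62.

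Among the basement membrane genes, a single probe set, of the type IV collagen gene Col4a1, had an unadjusted p under 0.05, with or without the block. This is 1 of 20 tested, against 3.44% of all probe sets without and 10.1% with the block. Of 24 probe sets, 20 were tested, with 11 positive and 9 negative log2 fold changes and a median of 0.04. Col4a1 and Col4a2 encode the chains of the most widespread type IV collagen network. Through the first of its 2 probe sets Col4a1 had levels of 10.94, 11.41 and 11.60 after mrhl siRNA, against 10.88, 10.94 and 11.20 after scrambled siRNA. Through the second it had 10.68, 11.01 and 10.73 after mrhl siRNA, against 10.51, 10.22 and 10.46 after scrambled siRNA. The groups overlapped in the first probe set and not in the second, and each pair was higher after mrhl siRNA in both. The log2 fold changes were 0.31 (SE 0.206) and 0.41 (SE 0.160, 95% interval 0.03 to 0.78), the second with an unadjusted p of 0.0367 (limma, adjusted p = 0.965). Without mrhl siRNA replicate 3 the first was 0.17, and without mrhl siRNA replicate 1 it was 0.50. For Col4a2 the levels were 10.29, 10.39 and 10.65 after mrhl siRNA, against 10.43, 10.02 and 10.65 after scrambled siRNA, with overlapping groups and a log2 fold change of 0.08 (95% interval -0.39 to 0.55).

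Col4a1 and Col4a2 are neighbours on chromosome 8 that are transcribed from opposite strands. In the RefSeq promoter table of mouse assembly GRCm38.p6 their starts lie 21 bases apart. The start of Col4a1, on the minus strand, is at 11312826, and that of Col4a2, on the plus strand, is at 11312805. The genes thus overlap at their starts, and the bases before the start of each lie within the other. The 250 bases before the start of Col4a2 hold a GC box (GGGCGG, searched on both strands), a motif found in 54.1% of the 37 promoter windows of the matrix genes and in 32.7% of all 32851 windows of the table. Both hold a CCAAT box (CCAAT, both strands), found in 32.4% of the 37 and 33.8% of all windows.

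The laminins are trimers of an alpha, a beta and a gamma chain that form the second network of the basement membrane. Lama5, an alpha chain of adult basement membranes, had levels of 9.57, 9.60 and 9.58 after mrhl siRNA, against 9.46, 8.95 and 9.47 after scrambled siRNA. The 3 mrhl siRNA arrays lay above all 3 scrambled siRNA arrays, of which replicate 2 was the lowest. Its log2 fold change was 0.29 (SE 0.180, 95% interval -0.13 to 0.71), but 0.11 without scrambled siRNA replicate 2. Lamb2, a beta chain, had 8.09, 7.71 and 7.85 after mrhl siRNA, against 8.03, 6.92 and 7.42 after scrambled siRNA. Here too replicate 2 was the low scrambled siRNA array, the groups overlapped, and the log2 fold change was 0.43 (SE 0.281), or 0.16 without that array. The gamma chain gene Lamc1 had 0.26 and 0.42 through its 2 probe sets, whereas the 3 tested probe sets of the beta chain gene Lamb1 had -0.21, -0.17 and -0.07. The alpha chain genes Lama2 and Lama4 had 0.26 for Lama2 and 0.03 and -0.33 for the probe sets of Lama4, all with intervals that included 0.

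Nidogens bridge the laminin and collagen networks, and their levels spanned far more between replicate numbers than between siRNAs. Nid1 had levels of 7.42, 8.39 and 9.17 after mrhl siRNA, against 7.54, 8.61 and 9.26 after scrambled siRNA. Its means by number were 7.48, 8.50 and 9.21, a span of 1.73, and its log2 fold change was -0.14 (SE 0.539). Nid2 spanned 1.60 between numbers and had a log2 fold change of -0.25 (SE 0.508). The remaining members were Col15a1 and Col18a1, collagens of basement membrane zones. Col15a1 had -0.14, and the probe sets of Col18a1 had 0.06 and -0.22.

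In the other non-fibrillar collagens, 9 of 11 probe sets were tested, 6 with a positive and 3 with a negative log2 fold change and a median of 0.14. With the block, 1 was higher and 2 were lower at an unadjusted p under 0.05, against 3.87% and 6.23% of all probe sets. Type VI collagen forms beaded filaments around cells from the chains of Col6a1, Col6a2 and Col6a3. Col6a3 had levels of 4.46, 5.26 and 5.32 after mrhl siRNA, against 3.66, 4.93 and 5.10 after scrambled siRNA. Every pair was higher after mrhl siRNA, by 0.80, 0.33 and 0.22, while the groups overlapped. The log2 fold change was 0.45 (SE 0.412), with an unadjusted p of 0.309 without and 0.0312 with the block (limma, adjusted p with the block = 0.487), and it was -0.00 without scrambled siRNA replicate 1, whose level was the lowest. Col6a1 had 0.15, and the 2 probe sets of Col6a2 had 0.13 and 0.30.

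Type XII collagen, the product of Col12a1, sits on the surface of collagen fibrils, and Col8a1 encodes a chain of the network-forming type VIII collagen. Col12a1 had levels of 6.75, 5.72 and 6.07 after mrhl siRNA, against 6.97, 6.13 and 6.36 after scrambled siRNA. It was lower after mrhl siRNA in each pair with overlapping groups, and its log2 fold change was -0.31 (SE 0.316), with an unadjusted p of 0.36 without and 0.0376 with the block (limma, adjusted p with the block = 0.487). On the log2 scale this was -0.59 without mrhl siRNA replicate 1 and -0.07 without scrambled siRNA replicate 1. A second probe set of Col12a1 had 0.14. The 3 probe sets of Col8a1 had log2 fold changes of 0.39, -0.38 and -0.24. Through the first, Col8a1 had 7.23, 7.67 and 7.86 after mrhl siRNA, against 6.93, 6.66 and 7.99 after scrambled siRNA. Through the second it had 6.11, 6.89 and 8.08 after mrhl siRNA, against 6.68, 7.37 and 8.16 after scrambled siRNA, with an unadjusted p of 0.51 without and 0.0419 with the block (limma, adjusted p with the block = 0.487). The probe sets of Col8a1 thus gave both signs, and the first had 0.12 without scrambled siRNA replicate 2 and 0.79 without scrambled siRNA replicate 3.

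Fibronectin and the matricellular genes held 14 tested probe sets of 16, with 5 positive and 9 negative log2 fold changes and a median of -0.08. Mgp stood farthest below 0 among them. It encodes matrix Gla protein, a small secreted protein known for keeping cartilage and arteries from calcifying. Mgp had levels of 5.46, 5.68 and 5.44 after mrhl siRNA, against 6.17, 5.97 and 6.36 after scrambled siRNA. All 3 mrhl siRNA arrays lay below all 3 scrambled siRNA arrays, and the means were 5.53 ± 0.13 after mrhl siRNA and 6.17 ± 0.19 after scrambled siRNA (SD, n = 3 each). This gave a log2 fold change of -0.64 (SE 0.160, 95% interval -1.02 to -0.27), a level 1.56-fold lower after mrhl siRNA. Its unadjusted p was 0.0046 without and 0.00853 with the block, and after adjustment it was above the threshold (limma, adjusted p = 0.965, or 0.487 with the block). Over 18 alternative settings the log2 fold change of Mgp stayed between -0.81 and -0.50. Mgp hardly differed between replicate numbers, with means of 5.82, 5.83 and 5.90.

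Smoc2, a calcium-binding matricellular protein related to Sparc, was the counterpart on the higher side. It had levels of 3.95, 3.82 and 4.05 after mrhl siRNA, against 3.24, 3.53 and 3.35 after scrambled siRNA. The groups did not overlap, but every scrambled siRNA value lay under 3.62, and Smoc2 reached that mean only through the mrhl siRNA arrays. The difference of 0.57 on the log2 scale (SE 0.149) is therefore a description, with no test. Its other probe set was not tested.

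Fibronectin itself and Sparc did not stand apart in any tested probe set, and each is given first through its brightest. Fn1, the gene of fibronectin, had levels of 12.79, 12.82 and 12.97 after mrhl siRNA, against 12.85, 12.68 and 13.01 after scrambled siRNA. Its log2 fold change of 0.02 had a 95% interval of -0.33 to 0.37, which bounds a difference at this probe set, and the groups overlapped throughout. Sparc, a collagen-binding glycoprotein of remodelling tissue, had 13.22, 12.95 and 13.00 after mrhl siRNA, against 13.21, 12.81 and 13.07 after scrambled siRNA. Its log2 fold change was 0.03 (95% interval -0.36 to 0.41). Read through these probe sets, both genes changed sign between settings. The other probe set of Fn1 had 0.07 (95% interval -0.41 to 0.55). Those of Sparc had 0.11 (95% interval -0.30 to 0.52) and -0.07 (95% interval -0.69 to 0.55).

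The thrombospondins and tenascin C modulate adhesion and are often seen where tissue is remodelled. Tnc, the gene of tenascin C, had levels of 8.97, 8.93 and 9.90 after mrhl siRNA, against 9.29, 9.27 and 10.13 after scrambled siRNA. Each pair was lower after mrhl siRNA, by -0.32, -0.34 and -0.23, although the groups overlapped because both arrays of number 3 were high. For Tnc the log2 fold change was -0.30 (SE 0.338, and 0.106 with the block), with an unadjusted p of 0.406 without and 0.0372 with the block (limma, adjusted p with the block = 0.487). Leaving out 1 array moved the log2 fold change between -0.61 (without mrhl siRNA replicate 3) and -0.01 (without scrambled siRNA replicate 3). Thbs2 had 3 probe sets with log2 fold changes of -0.16, -0.32 and -0.16. Through the second of them it had 6.69, 6.50 and 6.97 after mrhl siRNA, against 6.88, 6.78 and 7.44 after scrambled siRNA, lower in each pair and overlapping, with an unadjusted p of 0.0415 with the block (limma, adjusted p = 0.487). Its log2 value there was -0.11 without scrambled siRNA replicate 3. Thbs1 had -0.22 and -0.06 and spanned 1.41 and 1.15 between replicate numbers.

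Proteoglycans held 10 tested probe sets of 14, with 7 positive and 3 negative log2 fold changes and a median of 0.26. Versican, the product of Vcan, is a large chondroitin sulfate proteoglycan of loose matrix, and its 5 tested probe sets disagreed. The probe set with the second highest mean level had levels of 7.60, 7.08 and 6.26 after mrhl siRNA, against 6.42, 5.97 and 5.43 after scrambled siRNA. It was higher after mrhl siRNA in each pair, by 1.18, 1.11 and 0.83, while the groups overlapped because the values also differed between numbers. In this probe set the log2 fold change was 1.04 (SE 0.378), with a 95% interval of 0.16 to 1.93, or 2.06-fold higher after mrhl siRNA, with an unadjusted p of 0.0271 without and 0.000358 with the block (limma, adjusted p = 0.965, or 0.487 with the block). With the block and a trended, robust variance model its adjusted p was 0.0879 (limma). The other probe sets of Vcan had log2 fold changes of 0.11, 0.24, -0.06 and 0.59, the last from a probe set whose scrambled siRNA mean of 3.42 lay under the minimum level. The one with -0.06 is annotated with the same source sequence as the one with 1.04, and its pairs differed by 0.34, -0.37 and -0.13. Its mean level was 4.09, so the 2 readings of that sequence disagreed. The first of these, with the highest mean level, had 6.89, 6.70 and 6.78 after mrhl siRNA, against 6.44, 6.95 and 6.65 after scrambled siRNA, with overlapping groups.

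Biglycan and decorin are small leucine-rich proteoglycans that bind collagen. Bgn had levels of 10.69, 10.72 and 10.79 after mrhl siRNA, against 10.71, 9.93 and 10.63 after scrambled siRNA. Its 3 probe sets had log2 fold changes between 0.28 and 0.31, and in each the low array was scrambled siRNA replicate 2. Without that array the log2 fold change of Bgn was 0.06. Dcn had 12.54, 12.54 and 12.65 after mrhl siRNA, against 12.63, 12.70 and 12.68 after scrambled siRNA. Its log2 fold change was -0.09 (95% interval -0.40 to 0.21), and the groups overlapped.

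The elastic fibre and crosslinking genes held 13 tested probe sets of 14, with 7 positive and 6 negative log2 fold changes and a median of 0.01. Fbln5, a fibulin needed for the assembly of elastic fibres, had levels of 4.65, 4.74 and 6.17 after mrhl siRNA, against 5.66, 5.20 and 6.45 after scrambled siRNA. Each pair was lower after mrhl siRNA, by -1.01, -0.46 and -0.28, and the groups overlapped since both arrays of number 3 were high. Its log2 fold change was -0.58 (SE 0.469), with an unadjusted p of 0.252 without and 0.0188 with the block (limma, adjusted p with the block = 0.487). Without mrhl siRNA replicate 3 the log2 fold change was -1.08, and without scrambled siRNA replicate 3 it was -0.24. Fbln2, a fibulin that binds basement membrane and elastic fibre proteins, had 9.86, 9.97 and 10.44 after mrhl siRNA, against 9.91, 9.56 and 10.15 after scrambled siRNA. The groups overlapped and the log2 fold change was 0.21 (SE 0.222), or 0.04 without mrhl siRNA replicate 3 and 0.35 without scrambled siRNA replicate 3. Lox, the lysyl oxidase that crosslinks collagen and elastin, had -0.20, -0.22 and -0.05 through its 3 probe sets, and its relative Loxl1 had 0.15 through both. The probe sets of Fbln1 had 0.09, -0.12 and 0.04, and those of Eln, the elastin gene, had -0.11 and 0.22.

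The proteases and their inhibitors held 20 tested probe sets of 21, with 15 positive and 5 negative log2 fold changes and a median of 0.17. By pair the median was -0.00, 0.31 and 0.29 for numbers 1, 2 and 3. At an unadjusted p under 0.05 with the block stood 4 higher and 1 lower, against 3.87% and 6.23% of all probe sets. Without the block 0 stood there, against 3.44%. The 4 higher were probe sets of Mmp14, Timp2 and Timp3. The lower one was Mmp13, collagenase 3, which cleaves fibrillar collagens. Mmp13 had levels of 6.90, 7.88 and 8.26 after mrhl siRNA, against 7.53, 8.42 and 8.81 after scrambled siRNA. It was lower after mrhl siRNA by nearly the same amount in each pair, -0.63, -0.55 and -0.55, while its means by number spanned 1.32 and the groups overlapped. On average Mmp13 had a log2 fold change of -0.57, with an SE of 0.428 without and 0.106 with the block, a level 1.49-fold lower. Its unadjusted p was 0.22 without and 0.00272 with the block (limma, adjusted p = 0.965, or 0.487 with the block), and the log2 fold change lay between -0.94 (without scrambled siRNA replicate 1) and -0.18 (without mrhl siRNA replicate 1) over 18 alternative settings.

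Mmp3 and Mmp10, the stromelysins, cut many matrix proteins and can activate other matrix metalloproteinases. Mmp13, Mmp3 and Mmp10 belong to a run of 6 metalloproteinase genes on chromosome 9 with no other gene between them in the reference table (Mmp13, Mmp12, Mmp1b, Mmp3, Mmp1a and Mmp10). Mmp3 had levels of 5.12, 5.50 and 5.28 after mrhl siRNA, against 5.45, 5.17 and 4.95 after scrambled siRNA, with overlapping groups and a log2 fold change of 0.11 (SE 0.183). Mmp10 belongs to the other matrix genes described further down and not to the 47. It had 5.26, 6.34 and 7.14 after mrhl siRNA, against 6.21, 7.30 and 8.23 after scrambled siRNA. Like Mmp13 it was lower after mrhl siRNA by a similar amount in each pair, -0.95, -0.96 and -1.09, and its groups overlapped. For Mmp10 the log2 fold change was -1.001, with an unadjusted p of 0.137 without and 0.000221 with the block (limma, adjusted p = 0.965, or 0.487 with the block). Mmp12 and Mmp1a lay below 3.62 in their means and were not tested.

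The 250 bases before the starts of these 3 neighbouring genes are shown because Mmp13 and Mmp10 were lower in every pair and Mmp3 was not. They come from RefSeq, assembly GRCm38.p6, plus strand, and lie at chr9:7272264-7272513 for Mmp13, chr9:7445572-7445821 for Mmp3 and chr9:7502092-7502341 for Mmp10. Capitals mark, in this order along each line, the AP-1 site (TGACTCA or TGAGTCA) and the TATA box (TATAAA).
Mmp13: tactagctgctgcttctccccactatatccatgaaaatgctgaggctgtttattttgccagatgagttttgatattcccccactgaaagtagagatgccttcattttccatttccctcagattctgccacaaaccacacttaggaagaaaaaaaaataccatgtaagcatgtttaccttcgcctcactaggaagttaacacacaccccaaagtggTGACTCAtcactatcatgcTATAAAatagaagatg
Mmp3: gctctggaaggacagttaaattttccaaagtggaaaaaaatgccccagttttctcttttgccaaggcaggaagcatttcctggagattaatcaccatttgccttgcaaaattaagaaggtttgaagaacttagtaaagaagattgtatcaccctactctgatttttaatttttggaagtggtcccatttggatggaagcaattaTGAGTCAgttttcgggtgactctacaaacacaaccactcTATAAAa
Mmp10: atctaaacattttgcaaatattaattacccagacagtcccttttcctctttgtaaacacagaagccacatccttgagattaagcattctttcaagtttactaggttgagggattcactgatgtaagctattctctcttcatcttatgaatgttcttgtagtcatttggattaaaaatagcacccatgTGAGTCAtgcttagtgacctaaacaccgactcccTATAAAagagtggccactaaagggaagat
AP-1 sites were searched on both strands and bind dimers of Jun and Fos proteins, and TATA boxes were searched on the strand of the gene. The AP-1 site ends 29 bases before the start in Mmp13, 40 in Mmp3 and 57 in Mmp10. The TATA box ends 11 bases before the start in Mmp13, 2 in Mmp3 and 24 in Mmp10. All 3 promoters thus hold both motifs, at differing distances from the listed start, and the part of the motifs in the levels was not tested. Among the 37 promoter windows of 30 of the 47 genes, 3 held an AP-1 site, those of Mmp13, Mmp3 and Col6a1, or 8.11%, against 4.46% of all 32851 windows. A TATA box was found in 6 of the 37, or 16.2%, against 7.59% of all windows. A match is a description of these letters and not of binding.

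Mmp14 encodes a membrane-anchored metalloproteinase that activates Mmp2 at the cell surface. Through the probe set with the second highest mean level, Mmp14 had levels of 6.24, 6.99 and 7.37 after mrhl siRNA, against 5.83, 6.29 and 6.93 after scrambled siRNA. It was higher after mrhl siRNA in each pair, by 0.41, 0.70 and 0.44, with overlapping groups. The log2 fold change was 0.52 (SE 0.362), with an unadjusted p of 0.194 without and 0.00718 with the block (limma, adjusted p with the block = 0.487). This log2 fold change was 0.83 without mrhl siRNA replicate 1 and 0.26 without scrambled siRNA replicate 1. Through the probe set with the highest mean level, Mmp14 had 7.49, 8.66 and 8.91 after mrhl siRNA, against 7.57, 8.01 and 8.38 after scrambled siRNA, and a log2 fold change of 0.37 (SE 0.386). That value was 0.80 without mrhl siRNA replicate 1 and 0.09 without mrhl siRNA replicate 3. Here pair 1 was not higher, and the third probe set had -0.09. Mmp2, the gelatinase that cuts type IV collagen, had 8.53, 8.41 and 9.03 after mrhl siRNA, against 8.81, 8.12 and 8.93 after scrambled siRNA. Its log2 fold change was 0.04 (SE 0.265, 95% interval -0.58 to 0.66) with overlapping groups, and its sign changed between settings. Mmp9, the other gelatinase, had 0.10, and the fibroblast activation protein gene Fap, a cell surface serine protease, had -0.05.

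Of the inhibitors, Timp3 binds to the matrix itself, and its 4 probe sets had log2 fold changes of 0.25, 0.32, 0.37 and 0.52, all above 0. The first had levels of 11.50, 11.69 and 12.21 after mrhl siRNA, against 11.56, 11.28 and 11.80 after scrambled siRNA. The last had 9.12, 9.36 and 9.53 after mrhl siRNA, against 8.93, 8.34 and 9.18 after scrambled siRNA. Replicate 2 was the lowest scrambled siRNA array in both, the groups overlapped, and the last probe set had an unadjusted p of 0.0649 without and 0.0408 with the block (limma, adjusted p with the block = 0.487). Without scrambled siRNA replicate 2 the log2 fold change was 0.12 for the first probe set and 0.28 for the last, and without mrhl siRNA replicate 3 it was 0.05 for the first. Probe sets of 1 gene read the same RNA, so their shared sign is not a repeated measurement.

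Timp2, which also takes part in the activation of Mmp2 by Mmp14, had 6 tested probe sets that differed in sign. The 2 with the highest mean levels had -0.07 and -0.09, and the others had 0.16, 0.39, 0.45 and 0.18. The first had levels of 12.52, 12.61 and 12.86 after mrhl siRNA, against 12.65, 12.64 and 12.92 after scrambled siRNA. Through the probe set with 0.39, Timp2 had 10.46, 10.86 and 11.03 after mrhl siRNA, against 10.27, 10.20 and 10.69 after scrambled siRNA, with an unadjusted p of 0.0323 with the block (limma, adjusted p = 0.487). Through the probe set with 0.45, Timp2 had 10.06, 10.41 and 10.89 after mrhl siRNA, against 9.83, 9.65 and 10.56 after scrambled siRNA, with an unadjusted p of 0.0276 with the block (limma, adjusted p = 0.487). Without mrhl siRNA replicate 3 the log2 fold change was 0.27 for the first of these and 0.23 for the second. All groups overlapped, and the first probe set of Timp2 was lower after mrhl siRNA in each pair while the other 2 were higher in each. Timp1, the soluble inhibitor often induced with remodelling, had 11.07, 10.65 and 10.88 after mrhl siRNA, against 10.80, 10.42 and 10.81 after scrambled siRNA. It was higher after mrhl siRNA in each pair with overlapping groups, and its log2 fold change was 0.19 (SE 0.181, 95% interval -0.23 to 0.61), or 0.06 without scrambled siRNA replicate 2 and 0.30 without mrhl siRNA replicate 2.

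**Figure D2:**
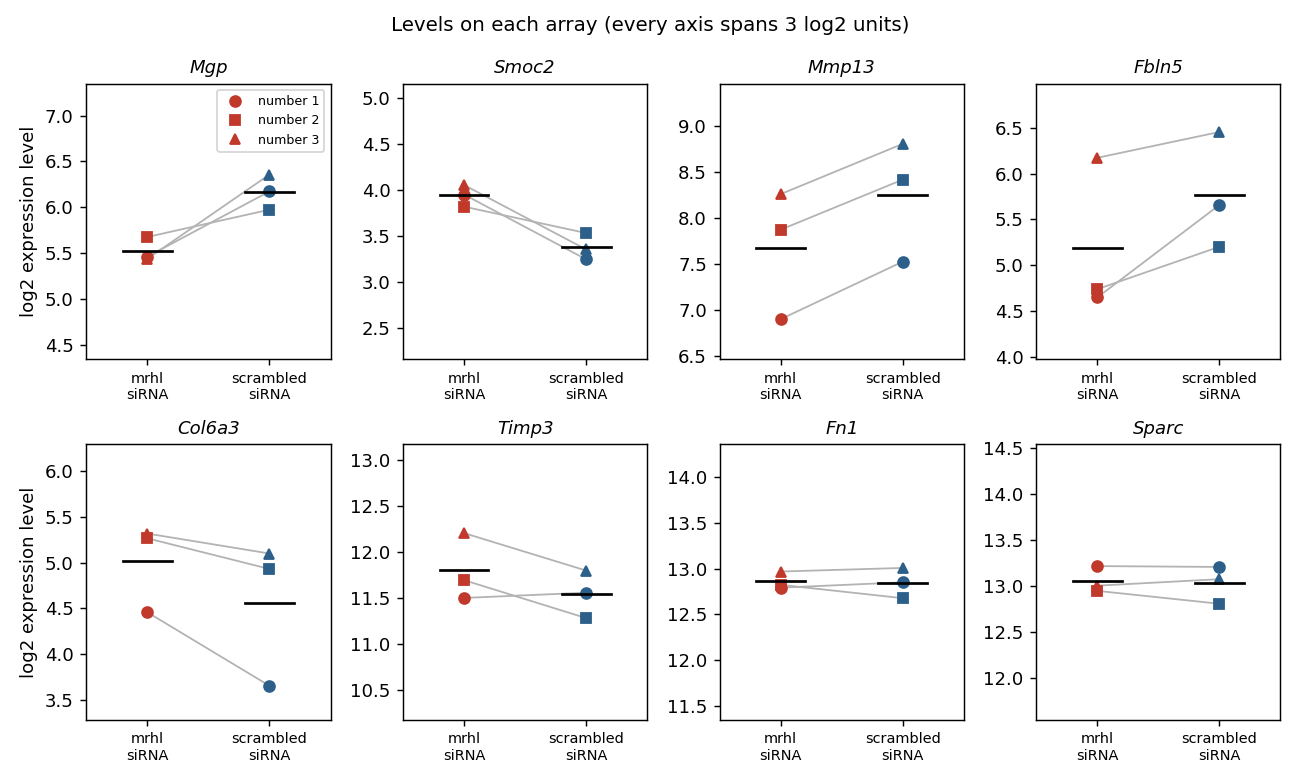
Log2 level of 8 genes on each array, mrhl siRNA at the left and scrambled siRNA at the right, with grey lines joining equal replicate numbers and black bars at the group means. Mgp and Smoc2 separate the groups, Mmp13 moves in parallel lines that start from different levels, and Fn1 and Sparc lie level.

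**Figure D3:**
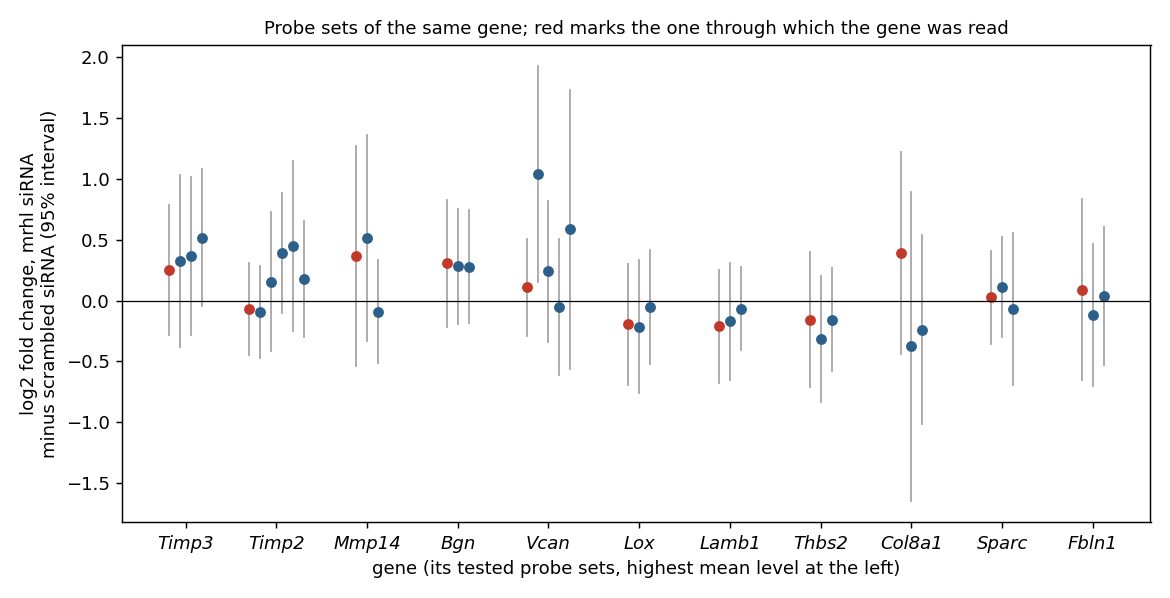
Log2 fold change (mrhl siRNA minus scrambled siRNA) with its 95% interval for each tested probe set of 11 genes, the one with the highest mean level at the left in red. The 4 probe sets of Timp3 and 3 of Bgn lie above 0, and those of Timp2, Vcan, Col8a1, Mmp14, Sparc and Fbln1 lie on both sides.

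Agreement between probe sets limited how a gene could be read. Of the 27 genes with more than 1 tested probe set, 17 had log2 fold changes of a single sign and 10 had both signs. The probe sets of Bgn, Lama5, Lamb1, Lamc1, Lox, Thbs2 and Timp3 shared a sign, whereas those of Vcan, Timp2, Col8a1, Col12a1 and Mmp14 did not.

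Many of these genes differed between replicate numbers, that is, between the 3 pairs of arrays. In the fit with the block, 39 of the 86 probe sets differed between numbers at an unadjusted p under 0.05 (limma F test, chosen after seeing the data), or 45.3%, against a background of 23.1%, and 0 passed the adjustment (limma, smallest adjusted p = 0.124). The share was 7 of 9 in the other non-fibrillar collagens, 7 of 14 in fibronectin and the matricellular genes, 7 of 13 in the elastic fibre and crosslinking genes, 9 of 20 in the proteases and inhibitors, 8 of 20 in the basement membrane genes and 1 of 10 in the proteoglycans. Means by number spanned over 1 log2 unit for 16 of the tested probe sets, among them those of Nid1, Nid2, Thbs1, Mmp13, Mmp14, Fbln5 and Col6a3. Direction differed between genes: Nid1 and Mmp13 were lowest in number 1, whereas Lamb2, Col12a1 and Nid2 were highest there. Among the 86, the standard errors of the fold changes had a median of 0.235 without and 0.148 with the block, against 0.192 without and 0.132 with it over all probe sets. Both arrays of number 1 also had the low RNA spike signals given above, and the part of this in the differences between numbers was not tested.

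**Figure D4:**
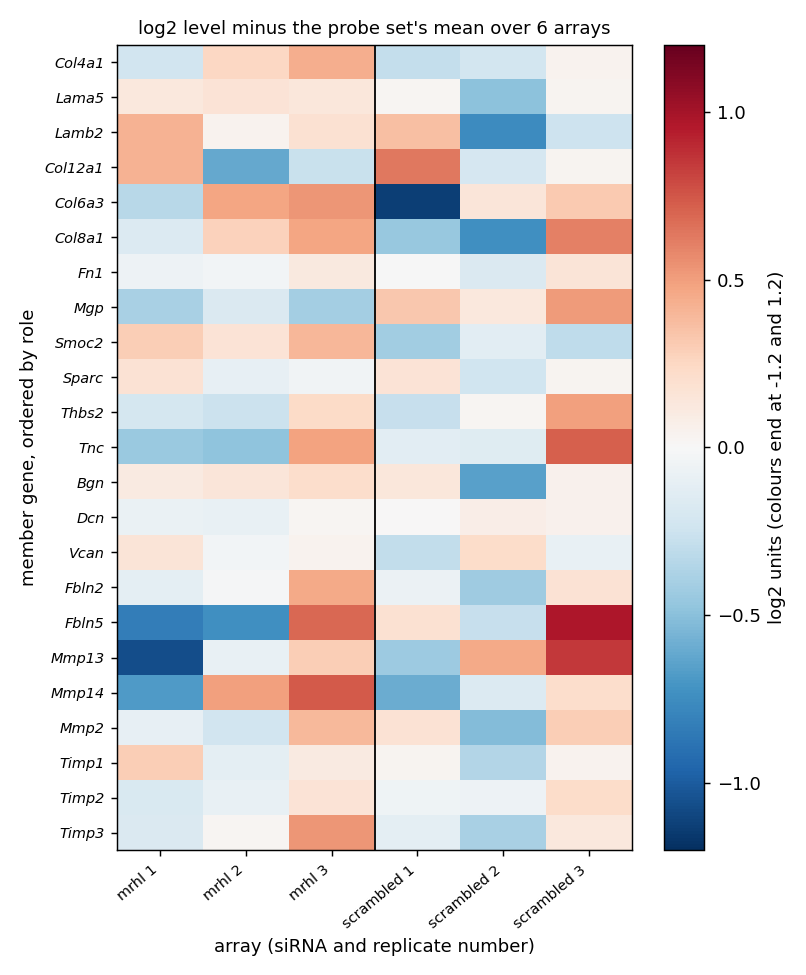
Log2 level minus the mean over the 6 arrays of the probe set through which each of the 23 genes described by array was read, with arrays as columns (mrhl siRNA left of the black line) and genes by role as rows. Mgp and Smoc2 change sign across the line, in Mmp13, Fbln5 and Tnc each mrhl siRNA array is lower than the scrambled siRNA array of the same number, and scrambled siRNA replicate 2 is blue in Lama5, Lamb2, Bgn and Timp3.

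Other genes of the matrix pathways, from a list of 84 symbols, gave a similar picture. Of these, 73 had probe sets, and 115 of their 138 probe sets were tested, with 63 positive and 52 negative log2 fold changes and a median of 0.04. At an adjusted p under 0.05, 0 of the 115 passed (limma), and at an unadjusted p under 0.05 stood 3 higher and 1 lower after mrhl siRNA, against 1.26% and 2.18% of all probe sets. With the block 20 of the 115 had an unadjusted p under 0.05, or 17.4%, against 10.1% of all, 11 of them higher and 9 lower. With the block and a trended, robust variance model 1 of the 115 passed the adjustment (limma), a fibrillar collagen probe set. The fibrillar collagens, which give tissue its tensile strength, had 12 positive and 4 negative values among 16 tested probe sets and a median of 0.27. Col3a1, the chain of type III collagen, had levels of 8.28, 7.74 and 7.67 after mrhl siRNA, against 6.27, 5.61 and 5.68 after scrambled siRNA. These groups did not overlap, and the log2 fold change was 2.04 (SE 0.244, limma, adjusted p = 0.965, or 0.213 with the block). The other proteases, 37 tested probe sets, had 20 positive and 17 negative values, with Mmp10 at -1.001 the lowest. Replicate number differed at an unadjusted p under 0.05 in 53 of the 115, or 46.1%, close to the 45.3% of the 86, against 23.1% of all probe sets.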

How the data were processed

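RNA from GC1-Spg cells was measured on 6 one-colour Affymetrix arrays, 3 after mrhl siRNA and 3 after scrambled siRNA. The values deposited by the authors are log2 expression values, 1 per probe set and array. GCOS and PLIER were used, per the submitters' processing notes, with no version, and the background correction and normalization are not given in those notes as used here. Array medians differed by at most 0.11, and the values were used as deposited. The number of arrays limits the precision.

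Of 45101 rows, 64 control rows were left out. The probe annotation paired 34945 of the others with 1 symbol and 932 with several, and did not list 9160. The 1 probe set that shares a member with another gene was not used. All 45 members with probe sets matched the GRCm38.p6 gene table by gene ID. Probe sets with a mean under the 25th percentile, 3.62, were left out. The tests used limma 3.58.1 in R 4.3.3 (lmFit, eBayes), with Benjamini-Hochberg adjustment over all 33778 tested probe sets, and the code was tested on simulated data. Where 1 value per gene is given, it is that of the tested probe set whose mean level was highest. Tables were made with Python 3.11.15 and pandas 2.3.3, and figures with matplotlib 3.10.9.

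Groups share replicate numbers, and the design text speaks of independent experiments. Deviations from group means correlated at 0.534, 0.201 and 0.567 for equal numbers, above the limit of 0.1, and at -0.518 to 0.0684 for unequal ones, so numbers were read as pairs. The fit without the block is the main one.

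Members, roles and lists were chosen with earlier results of these data known. Values by array were to be given for the 2 genes of each role with the smallest p, for members with an unadjusted p under 0.05 with or without the block, and for 9 fixed genes (Fn1, Sparc, Mgp, Smoc2, Timp1, Timp2, Timp3, Mmp2 and Mmp14), which gave 23 genes. Values by array of Col4a2, Nid1, Mmp3, Mmp10 and Col3a1 were added after seeing the data. Alternatives were quantile normalization, centred medians, no filter or one at the median, the block, trended and robust variance with or without it, array weights, each array or number left out, and averaging the probe sets of each gene. The differences within pairs and the F test of the replicate number were added after seeing the data. Markers of Leydig cells and of macrophages and blood were listed too: 1 of 4 measured Leydig markers and 4 of 6 measured macrophage and blood markers lay above the median level.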

Additional observations from a re-analysis of the deposited data

How the results depend on the processing

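Of the 31 genes and probe sets followed through 18 alternatives, 22 kept 1 sign of the log2 fold change in every setting run. Among them were Mgp (-0.81 to -0.50), Mmp13 (-0.94 to -0.18) and the Vcan probe set with the second highest level (0.73 to 1.40). Smoc2 (0.50 to 0.70) was counted too, but it reached the minimum level only through the mrhl siRNA arrays, so its kept sign is only a description. None of the 31 passed the adjustment in any setting. Smoc2 and Col6a3 lay under the median level and had no value with the filter set there. Adding the replicate block left 0 probe sets past it (limma) and gave 15 members at an unadjusted p under 0.05 in place of 4 (background 10.1%). With the block and trended, robust variance these numbers were 2 of all probe sets (0 of the 86 members) and 27 (background 13.1%). Leaving out 1 array gave 2 to 7 members at an unadjusted p under 0.05 (background 2.00% to 7.12%), a median log2 fold change of 0.0235 to 0.117 and 9 to 17 members without overlap of groups (background 13.1% to 26.6%). Without both arrays of number 1, 2 or 3 the members without overlap were 26, 15 and 27, as fewer arrays overlap less often (background 33.2%, 22.9% and 33.6%). Without number 2 the unadjusted count was 2 (background 1.72%) and the median 0.0019.

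Leaving out 1 array at a time reversed the sign for Fn1 (-0.0677 to 0.097), Mmp2 (-0.2095 to 0.1975), Sparc (-0.0852 to 0.1153), Timp2 (-0.17 to 0.0208), Vcan (-0.0121 to 0.2436), Thbs2 (-0.3325 to 0.0477), Col6a3 (-0.0016 to 0.728) and the second probe set of Col8a1 (-0.9008 to 0.0831). The arrays concerned were scrambled siRNA replicate 2 and mrhl siRNA replicate 3 for Fn1 and Mmp2, scrambled siRNA replicate 2 and mrhl siRNA replicate 1 for Sparc, scrambled siRNA replicate 3 and mrhl siRNA replicate 1 for Timp2 and Col8a1, scrambled siRNA replicate 3 for Thbs2, and scrambled siRNA replicate 1 for Vcan and Col6a3. Without both arrays of number 2, Fn1 had -0.0487, Mmp2 -0.0855 and Sparc -0.0307, and without both of number 1 Vcan had -0.0637. Array weights gave -0.0321 for Fn1 and -0.0691 for Mmp2, and averaging a gene's probe sets gave 0.1688 for Timp2 and -0.0749 for Col8a1. The fits with arrays left out and the one with array weights had no block. With 1 array of a pair left out, differences between replicate numbers enter the log2 fold change. Col6a3, for one, was higher after mrhl siRNA in each pair, and its means by number spanned 1.15. Other causes of the reversals were not tested. With 4 residual degrees of freedom, or 2 with the block, small differences cannot be resolved, and the scrambled siRNA signal of Smoc2 lay in the range left out as dim.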
